A study of Drosophila melanogaster with 4 samples.

Results

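H3K4me3, trimethylation of lysine 4 of histone H3, marks the chromatin around the start sites of transcribed genes, where it is laid down by Set1/COMPASS-type methyltransferases. The Lid/KDM5 enzyme is a demethylase that removes this mark. Among genes active in the female germ line, dhd encodes a maternal thioredoxin that acts on the sperm nucleus at fertilization. A chromatin immunoprecipitation followed by sequencing (ChIP-seq) peak is a stretch of the genome where fragments bound by the antibody pile up above the local background. The regions described here are those where H3K4me3 was called in control ovaries and not in ovaries depleted of Lid. They were chosen by the calls themselves: peaks of the 4 lists were merged when they shared at least 1 base, and a region was kept when both control libraries and neither lid KD library had a peak in it. This selected 701 of 26557 merged regions (2.64%), or 6.86% of the 10216 regions with a peak in both controls. For comparison, 8883 regions were called in all 4 libraries, 632 in both controls and 1 lid KD library, and 386 in the lid KD pair but in no control.

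The 4 libraries came from Drosophila melanogaster ovaries, 2 from control females (MTD-Gal4>+) and 2 from lid KD females (MTD-Gal4>shRNA lid), immunoprecipitated with the same H3K4me3 antibody (abcam ab8580). MTD-Gal4, carried by both groups, drives expression in germ cells, so the follicle cells and muscle of the lid KD ovaries do not express the hairpin. Each library pooled the ovaries of many females. Their age is not certain, as one label gives 3 days, another gives 0 to 1 day for virgin females, and the methods give 2 days. In whole ovaries, a loss of the mark in some cells and a smaller number of those cells cannot be told apart.

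The libraries did not stand equally far from each other. The summit pileups of the lid KD pair differed by 0.995 counting errors over the regions called in all 4 libraries, that is by no more than sampling noise, and the pair was counted as 1 sample. The control pair differed by 2.27 counting errors. The lists of control replicates 1 and 2 held 12087 and 25302 peaks, and those of the lid KD pair 12832 and 13501. Control replicate 2 thus had the longest list, although its background coverage was the lowest, at 48.4 fragments per base against 55.5 to 60.1. In every library most start sites of a female germ cell list (12 to 17 of 20 genes) and of a follicle cell list (23 to 25 of 28 genes) carried a peak. Start sites of a neuron and ion channel list carried one at 18 of 29 genes in control replicate 2 and at 3 or 4 in the other libraries, and their part in the results was not tested. The start site of lid (Kdm5) was called in 4 of 4 libraries, and peak lists do not measure its transcript.

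The strongest of the 701 regions included some over annotated elements, some with CA tracts and a few short genes. The DNA under their summits is shown because these places differ from a typical start site. Each is 150 bases of the plus strand of the Release 6 assembly (dm6), as RefSeq gives it, centred on the summit of control replicate 1. Capitals mark runs of a short repeat (at least 4 CA units or 3 units of 5 bases), or, where there is none, the 11 bases centred on the summit.

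dhd coding sequence, chrX:5312618-5312767: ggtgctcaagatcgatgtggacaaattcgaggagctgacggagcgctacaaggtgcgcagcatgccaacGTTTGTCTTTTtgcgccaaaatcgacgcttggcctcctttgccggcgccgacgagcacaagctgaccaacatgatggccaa
Jon99Ci coding sequence, chr3R:29925380-29925529: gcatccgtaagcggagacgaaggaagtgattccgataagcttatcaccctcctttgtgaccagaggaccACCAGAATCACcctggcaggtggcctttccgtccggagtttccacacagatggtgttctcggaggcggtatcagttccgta
nAChRalpha3 intron, in a hobo element, chrX:8295965-8296114: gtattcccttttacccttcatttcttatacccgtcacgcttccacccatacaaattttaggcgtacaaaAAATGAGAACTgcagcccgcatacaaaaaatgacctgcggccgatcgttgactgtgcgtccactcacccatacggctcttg
Intergenic, in a rover element, chrX:22432998-22433147: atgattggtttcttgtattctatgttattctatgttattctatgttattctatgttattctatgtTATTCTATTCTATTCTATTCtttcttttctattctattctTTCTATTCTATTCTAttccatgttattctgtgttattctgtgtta
Intergenic, chr2L:20292432-20292581: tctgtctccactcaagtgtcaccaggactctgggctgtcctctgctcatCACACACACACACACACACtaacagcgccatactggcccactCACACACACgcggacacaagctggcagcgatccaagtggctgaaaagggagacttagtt
Intergenic, chr3R:10957855-10958004: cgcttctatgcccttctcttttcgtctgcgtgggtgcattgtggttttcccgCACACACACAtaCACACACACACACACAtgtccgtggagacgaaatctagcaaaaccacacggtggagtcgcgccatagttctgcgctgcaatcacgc

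The dhd and Jon99Ci windows lie in coding sequence, the rover window is 23.3% GC and built of a tandem repeat, and both intergenic windows on 2L and 3R hold a CA tract of up to 19 and 16 bases at or beside the summit.

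The strength of a peak is given by its fold enrichment, the pileup of fragments at the summit over the background that the peak caller set at that place. Because the calls selected these regions, their fold enrichments are a description and were not tested. The median was 1.55 in control replicate 1 and 2.19 in control replicate 2, compared with 3.75 and 4.41 for the regions called in all 4 libraries. In control replicate 1 the quartiles were 1.47 and 1.65, and the regions had a median percentile of 15.3 within its list. In control replicate 2 the quartiles were 1.99 and 2.40, and the median percentile was 51.5. The value was higher in control replicate 2 at 691 of the 701 regions (98.6%, against 89.7% of those called in all 4). The controls placed the summits within 100 bp of each other in 72.2% of the regions, much as in the regions called in all 4 (74.3%).

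**Figure D1:**
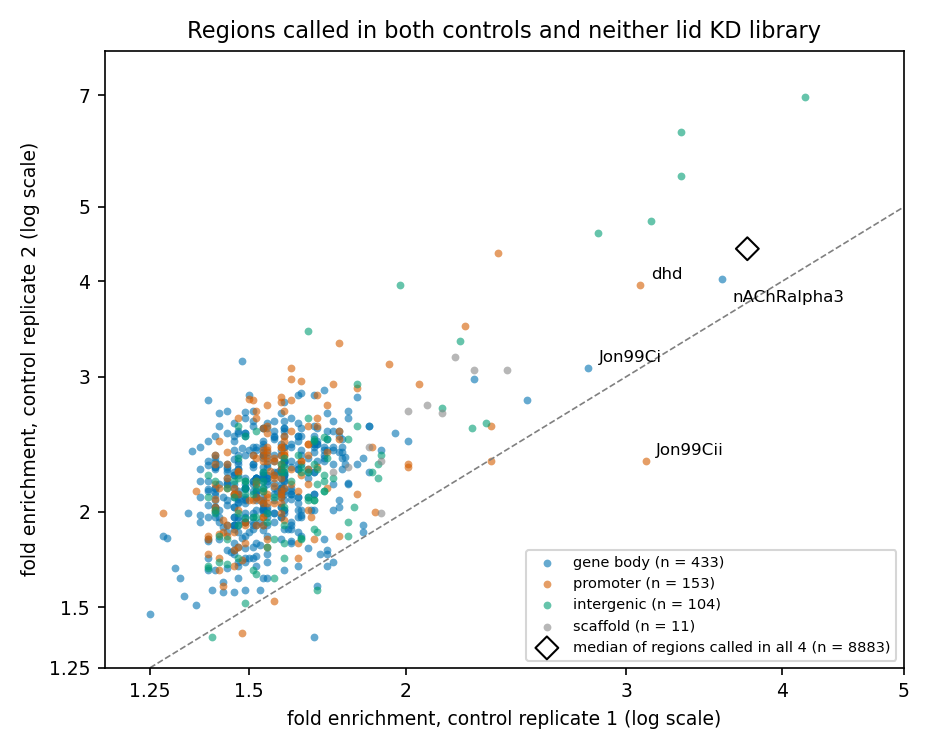
Fold enrichment at the summit in control replicate 1 (x axis) and control replicate 2 (y axis), both on log scales, for each of the 701 regions called in both controls but in no lid KD library, coloured by annotation. Most points sit near 1.55 and 2.19, above the dashed line of equality, while dhd, nAChRalpha3, the Jon99C genes and a few intergenic regions reach towards the open diamond, the median of the 8883 regions called in all 4 libraries.

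In control replicate 1 most of these peaks were just strong enough to be called, which was not so in control replicate 2. Where the local background was that of the genome, the weakest lid KD peaks had a fold enrichment of 1.36 in replicate 1 and 1.35 in replicate 2, and 1.36 was taken as the calling limit. In control replicate 1 the summit pileup of 81.3% of the regions lay less than 2 counting errors above that limit, and that of 34.7% less than 1. In control replicate 2 these shares were 4.71% and 0.571%. Only 13 regions (1.85%) stood at least 5 counting errors above the limit in both controls, among them dhd, nAChRalpha3, Jon99Ci, d4, tacc, CG18278 and Cyp12c1. The counting error does not include the variation between ovaries. Just outside the rule, the 632 regions with 1 lid KD peak had medians of 1.59 and 2.38 in the controls, and their lid KD peaks had medians of 1.61 (206 regions, replicate 1) and 1.63 (426 regions, replicate 2).

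The share of control regions without a lid KD peak was largest among weak peaks. Of regions with a peak in both controls, 24.5% (38 of 155) had no lid KD peak when the fold enrichment in control replicate 1 was under 1.4, and 30.5% at 1.4 to 1.5. This share was 15.2% at 1.6 to 1.8, 4.40% at 1.8 to 2.0 and 0.133% (7 of 5260) at 3.0 and over. The regions called in the lid KD pair had, by their weaker library, 26.2%, 9.68%, 6.65%, 7.45% and 0.257% without a control peak in the same classes. At a fold enrichment of at least 2 in both libraries of a group, 29 of 6439 control regions (0.450%) had no lid KD peak, and 118 of 7613 lid KD regions (1.55%) had no control peak. The regions missing in lid KD thus outnumbered those missing in the controls below 1.8 and not from 1.8 upwards. The count of 701 depended on the lists: it was 459 with lists of equal length, 12634 without control replicate 1, 1610 without control replicate 2 and 1128 without lid KD replicate 2. Leaving out a library loosens the rule, so it could only raise the count.

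**Figure D2:**
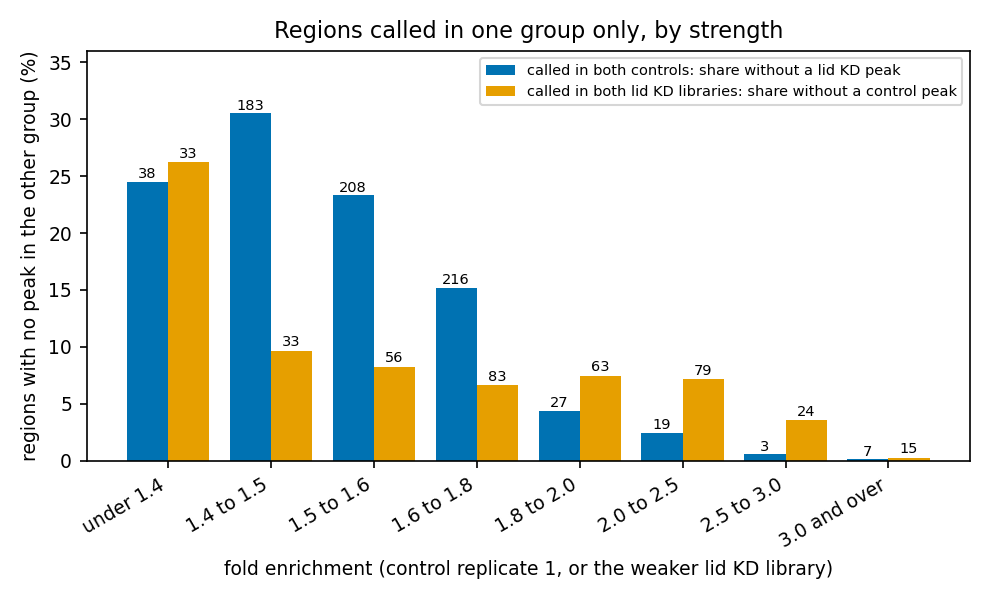
Regions called in both libraries of one group and in neither of the other, as a percent of all regions called in both libraries of the first group (y axis), by class of fold enrichment (x axis, control replicate 1 for the blue bars and the weaker lid KD library for the orange bars). Numbers above the bars count the regions: the blue share falls from 30.5% at 1.4 to 1.5 to 0.133% at 3.0 and over.

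By summit pileup, and by fold enrichment in the weaker control, the strongest region at a gene start site was that of dhd. It is a short, intronless gene (X, 5312171-5313125, plus strand), and over it the region 5312401-5313104 had control fold enrichments of 3.08 and 3.95. By summit pileup, 757 and 982 fragments, it ranked 1 of 701 in both controls, 15.4 and 20.6 counting errors above the limit. Its GC content was 46.9%, below the lower quartile of the 690 regions with sequence (53.7%). The peak covered the whole coding part of the gene and came within 500 bp of the start of CG4198 (X, 5313258-5315190), a gene of the testis and sperm list used here. No library had a peak at the start site of TrxT (X, 5310581-5311888), the testis thioredoxin that lies back to back with dhd.

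The strong peaks around dhd were present in both groups. Upstream, the region over Cdk7 and snf (5309275-5309987), a cyclin-dependent kinase and a splicing factor, had control fold enrichments of 5.19 and 6.45, compared with 7.60 and 7.67 after lid KD. The next region upstream (5307851-5309086) had 4.69 and 6.45, compared with 7.17 and 6.91. Downstream, the shared start of CG15930 and Sas10 had 5.35 and 6.51, compared with 6.88 and 6.74. Farther downstream, Rnp4F had 4.39 and 4.87 against 4.53 and 4.40. Over all 8883 regions called in all 4 libraries the medians were 3.75 and 4.41 in the controls and 4.33 and 4.28 after lid KD. Differences at single regions around dhd were not tested. A weak peak at the start of CG4198 (5313620-5313814), 516 bp from the dhd region, was called in control replicate 2 alone, with a fold enrichment of 1.18. The nearest lid KD peak to dhd was a weak one in lid KD replicate 1 alone, 2051 bp away, with a fold enrichment of 1.38.

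**Figure D3:**
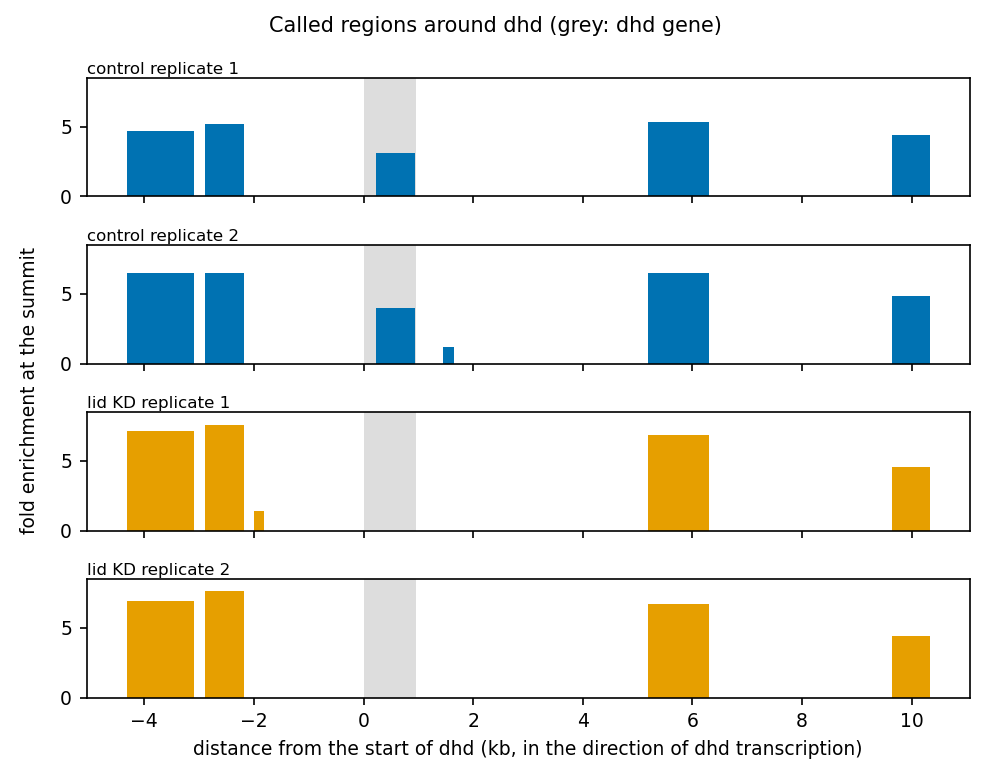
Fold enrichment at the summit (y axis) of every called region within 10 kb of the dhd region, against the distance from the start of dhd in kb (x axis), one panel per library. Each bar spans 1 merged region and the grey band is the dhd gene: 2 control panels have a bar of 3.08 and 3.95 there and the lid KD panels have none, while 4 flanking bars stand in all 4 panels and the low bars of 1.18 and 1.38 in 1 panel each.

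Among the 10 start-site regions with the highest fold enrichment in the weaker control, the next was at CG18278 (2R, 13409275-13409597), with 2.37 and 4.36. The start-site region of Jon99Cii (3R, 29924454-29924767), a gut serine protease of the Jonah family, had 3.11 and 2.33, and the body of its neighbour Jon99Ci (3R, 29925336-29925656) had 2.80 and 3.08. These regions lie less than 1 kb apart in a cluster of closely related copies, where reads are assigned to one copy only if they align uniquely. CG6357 had 2.34 and 2.33, CG1544 had 2.23 and 3.50, and CG14089 had 2.05 and 2.94. Cyp12c1, a cytochrome P450 gene, had 1.94 and 3.12 over a local background 2.42 and 2.45 times that of the genome, so its pileups of 284 and 372 were among the highest 6 of the 701 in both controls. At these genes neither lid KD library had a peak at any annotated start site. The region at tacc, a centrosomal microtubule regulator (2.34 and 2.59), and the region at dve, a homeodomain gene (2.01 and 2.31), lay at single start sites of genes with a lid KD peak in 2 libraries at another. For lncRNA:CR45054 (2.01 and 2.29) 1 lid KD library had a peak near the start site, outside the region.

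The 10 strongest regions away from start sites were mostly intergenic, and several overlapped annotated elements or held short CA tracts. An intergenic region in a rover element on X (22433015-22433191) had the highest fold enrichments of all, 4.17 and 6.97, at the lowest GC content of the 690 with sequence, 22.0%. The hobo element in an intron of nAChRalpha3 (X, 8295970-8296188), a subunit of the nicotinic acetylcholine receptor, had 3.58 and 4.03 with both summits at the same base. Neighbouring intergenic regions on 2R overlap Doc3, opus, Fw2 and ninja-type elements. One (5107679-5109712) had 3.32 and 5.49, and the other (5104692-5106874), the widest of the 701 at 2183 bp, had 3.32 and 6.27. The regions with CA tracts had 3.14 and 4.80 on 2L (20292324-20292628) and 2.85 and 4.62 on 3R (10957568-10958072), and lay 18565 and 63540 bp from the nearest lid KD peak. An intron of d4 (2R, 5266239-5267094), a PHD finger gene, had 2.50 and 2.80. The others were on an unplaced X scaffold (2.41 and 3.06) and over Cr1a and baggins elements on 2L (2.32 and 2.61). All 10 had higher values in control replicate 2, although the order of the regions differed between the controls.

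An annotated element overlapped 41 of the 701 (5.85%), compared with 1.19% of the regions called in all 4 1.74% of those with 1 lid KD peak and 4.40% of those called in the lid KD pair only. Within intergenic DNA the share was 26.9% for the 104 regions and 25.6% for those called in all 4. Without control replicate 1 the 5.85% was 0.823%. Of the 29 regions with a fold enrichment of at least 2 in both controls, 7 overlapped an element and 6 lay on scaffolds. The elements belonged to 29 families, with Rt1b (6 regions), Rt1a and Rt1c (5 each), all LINE-type retrotransposons, as the most frequent. These families were not missing from lid KD, as 13 Rt1b, 7 Rt1a and 6 Rt1c regions were called in all 4 libraries. Only uniquely aligned reads had been kept, and copies of elements that differ between fly stocks cannot be seen in peak lists.

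By position, 153 of the 701 regions (21.8%) lay within 500 bp of an annotated start site, 433 (61.8%) in gene bodies, 104 (14.8%) in intergenic DNA and 11 (1.57%) on scaffolds without annotation. Regions called in all 4 libraries were at start sites in 74.6%, in gene bodies in 22.8% and intergenic in 2.24%. Matched on the strength in control replicate 1 alone, the contrast at start sites and in gene bodies was smaller. The part of strength in it was not tested. In the class of 1.4 to 1.8 in control replicate 1, start sites made up 22.1% of the 701-region set and 26.8% of the regions called in all 4, and gene bodies 63.9% and 68.6%. Intergenic DNA still differed there, at 13.7% and 4.51%. Read the other way, 18.3% of control regions at start sites, 19.7% of those in gene bodies and 40.9% of the intergenic ones in this class had no lid KD peak.

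**Figure D4:**
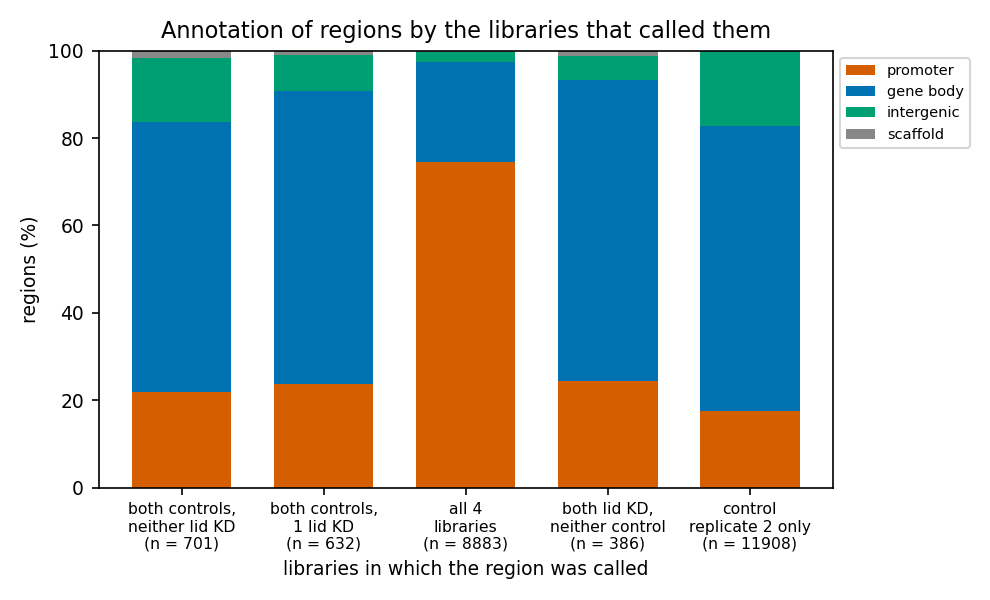
Percent of regions (y axis) at start sites (promoter, within 500 bp), in gene bodies, intergenic and on scaffolds, for 5 sets of regions named by the libraries that called them (x axis, with the number of regions). Start sites make up 21.8% of the regions called in both controls but in no lid KD library and 74.6% of those called in all 4 libraries.

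The gene-body regions were mainly exonic. Their summits fell in coding sequence in 309 of 433 (71.4%) and in introns in 109 (25.2%), nearly the same as for the gene-body regions called in all 4 libraries (69.9% and 25.8%). Their 401 protein-coding host genes were long, with a median of 17.2 kb, as were the hosts of gene-body regions called in all 4 (12.0 kb, against 2.16 kb over all 13968 genes). Of the 401, 213 (53.1%) had a start-site peak in all 4 libraries, compared with 72.1% of those other hosts and 48.2% of all genes. Host genes with the most regions were Svil (4), a supervillin-type actin-binding protein, d4 (4), and with 3 each Egfr, the epidermal growth factor receptor, cic, a repressor downstream of it, jing, pyd and spen. Each of these 7 genes had its start site called in 4 of 4 libraries. The 5 regions in 13.6 kb around CG14085, CG14089 and Gbs-76A on 3L (19271401-19285037) and the 4 in d4 were the densest groups, and 156 of the 690 regions on the main arms (22.6%) had another within 10 kb. By chromosome arm the share of control regions without a lid KD peak was 5.87% on X, 6.23% to 7.99% on the large autosome arms and 16.1% (10 of 62) on the small, heterochromatin-rich chromosome 4.

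At start sites the summits lay a median of 207 bp downstream of the nearest start (quartiles -95 and 412), and 69.3% were downstream, compared with a median of 265 bp and 91.3% for the regions called in all 4. The summit itself lay within 500 bp of a start in 77.8% of the 153 regions, compared with 89.0% of those called in all 4. The 153 regions touched the start sites of 169 genes, 139 of them protein-coding. Of these, 95 protein-coding genes (0.680% of 13968 on the main arms) had no lid KD peak at any start site. The other 44 had one within 500 bp of a start site, which could be the same start site or another. The 95 was 1434 without control replicate 1, 255 without control replicate 2 and 167 without lid KD replicate 2. The 95 genes had a median length of 1.88 kb, compared with 2.16 kb over all genes and 2.76 kb for genes with a start-site peak in all 4, and 77 of their 95 regions had the summit in coding sequence. Their regions had median fold enrichments of 1.55 and 2.27, and 6 regions, those of dhd and CG4198, CG18278, CG6357, Jon99Cii, CG1544 and CG14089, reached 2 in both controls.

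Several of the 95 belong to named gene families, which were picked here after their values had been seen. The cuticle protein genes Cpr23B, Cpr30B, Cpr64Aa and Cpr64Ac were 4 of 70 Cpr genes. Of these 70, 8 and 37 had a start-site peak in control replicates 1 and 2, and 7 in each lid KD library. The digestive protease genes Jon66Cii and Jon99Cii were 2 of 16 Jon genes, of which 3 and 8 had a start-site peak in the controls and 1 and 2 after lid KD. Alp9, Alp10 and Alp11, alkaline phosphatase genes, were 3 of 12 Alp genes, with 3 and 7 in the controls and 2 and 1 after lid KD, and Alp9 and Alp10 share 1 region. Their control replicate 1 summits lay in coding sequence at 639, -909 and 531 bp from the start sites of Alp9, Alp10 and Alp11. These regions thus reached to within 500 bp of the start sites, while these summits lay farther away than that. Control replicate 2 had the most start-site peaks in each of these families. The Cyp genes held 2 of 85, the Gst genes 1 of 35 and the Obp genes 1 of 51. Other genes among the 95, also picked after their values were seen and tested as no group, were the transcription factor genes al (1.55 and 2.53), elB (1.62 and 3.08), ind (1.59 and 2.13), knrl (1.69 and 1.84), rn (1.57 and 2.05), tio with 2 regions, OdsH (1.73 and 2.15) and E(spl)m5-HLH, 1 of 11 E(spl) genes. In grh, a regulator of epithelial genes, the region (1.59 and 2.11) overlapped a roo element. The set also held Pu, which encodes GTP cyclohydrolase for pigment synthesis (1.41 and 2.08), b, an aspartate decarboxylase (1.48 and 1.39), and Cyp6d2. The apoptotic caspase gene Dcp-1, which acts in ovarian germ cells, had 1.43 and 1.60 over a high local background, with pileups of 509 and 627.

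Counts over the gene lists can be read against the 95 of 13968 genes given above. Of 26 genes of the oocyte-to-zygote transition, 25 had a start-site peak in all 4 libraries, and dhd was the 1 with a region of this kind. Of 9 thioredoxin and reductase genes, 3 had a start-site peak in all 4, and dhd was again the 1 with such a region. None of the 16 genes of the Lid, Sin3A and H3K4 methyltransferase list held such a region, and 15 had a start-site peak in all 4. Among 28 follicle cell and eggshell genes 21 were called in all 4. Vml, a vitelline membrane protein gene, had such a region at its start site and no lid KD peak there (X, 2275957-2276833, with 1.60 and 2.37). The control replicate 1 peak with 1.60 had its summit in coding sequence, 776 bp downstream of the start. Regions also lay in the bodies of cas and upd1. Among 20 female germ cell genes, orb, an RNA-binding regulator of oocyte mRNAs, had a narrow region of 230 bp at a start site (1.42 in control replicate 1) and kept start-site peaks in all 4 libraries, and AGO3, a Piwi-type Argonaute gene, had one in an intron. CG4198 was the 1 of 22 testis genes, through the dhd region, which ended upstream of the CG4198 start and within 500 bp of it.

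The neuronal, homeotic, muscle and hemocyte lists had such regions in gene bodies and none at their start sites. The genes were 5 of 29 neuronal genes (Syt1, brp, Shaw, nAChRalpha3 and nAChRalpha4), 6 of 28 homeotic and segmentation genes (abd-A, Antp, Scr, dpp, kni and cad), 2 of 13 muscle genes (Mhc and Actn) and 1 of 9 hemocyte genes (Pxn). The Actn region was classed at a start site, though not at one of Actn. Over all genes, 401 of 13968 hosted a region classed as gene body. That share is not matched for length, as host genes had a median of 17.2 kb against 2.16 kb over all genes. In dpp, which encodes a BMP-type ligand, the region was 1125 bp wide with 1.91 in control replicate 1. In the gap gene kni it was 1132 bp wide with 1.47 and lay 36921 bp from the nearest lid KD peak. Of the 6 homeotic and segmentation genes, Scr, dpp and cad had a start-site peak in all 4 libraries, abd-A and Antp in control replicate 2 alone and kni in none.

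The regions were narrower and richer in GC than those called in all 4 libraries. Their median width was 415 bp (quartiles 296 and 614), against 875 bp, where a region called in all 4 joins peaks of more lists and is wider by construction. The part called in control replicate 1 was the narrower, with a median of 199 bp against 390 bp in control replicate 2. Their median GC content was 56.6%, against 51.6% for the regions called in all 4 and 51.0% for those called in the lid KD pair only. It was close to that of the regions called in control replicate 2 only (56.4%). At matched strength, 1.4 to 1.8 in control replicate 1, the GC contents were 56.7% for the 607 regions of this kind and 56.4% for 1750 called in all 4, a smaller gap than over all strengths. Position differed too: at start sites the GC contents were 56.3% and 50.6% over all strengths, and in gene bodies 57.0% and 56.0%. The shares of strength and position in the GC difference were not tested. Among the 29 strongest, with at least 2 in both controls, the median GC content was 50.6%, leaving out the 6 on scaffolds, which had no sequence here.

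**Figure D5:**
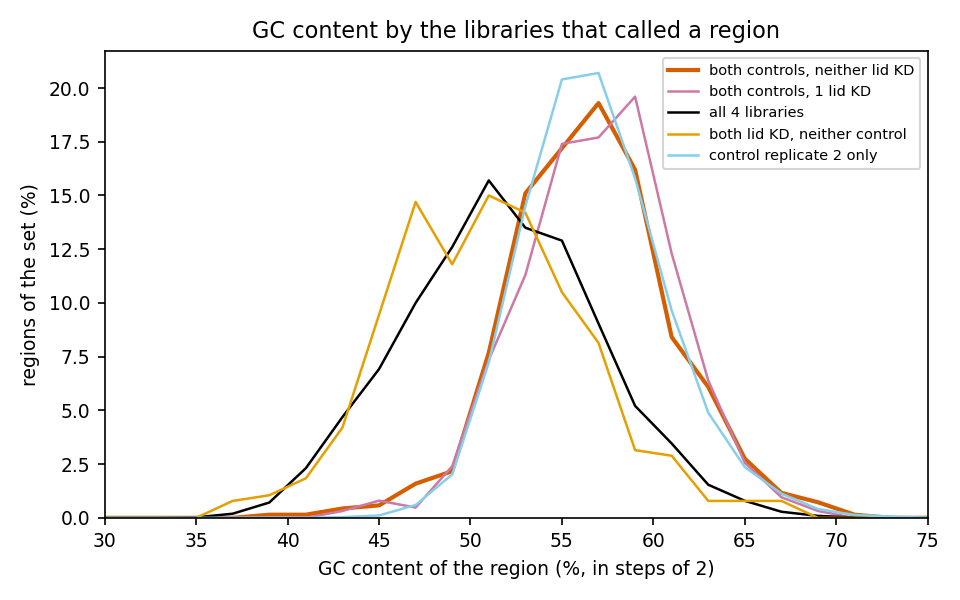
Percent of the regions of each set (y axis) by GC content in steps of 2% (x axis), for 5 sets named by the libraries that called them. The regions called in both controls but in no lid KD library have their median at 56.6%, with those of control replicate 2 only at 56.4%, and the regions called in all 4 at 51.6%.

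Short sequence elements were counted on both strands in 200 bases around the summit of control replicate 1, without regard to overlap between elements. The GAGA-type element GAGAG occurred in 28.7% of 690 windows, compared with 24.8% of all 11495 windows with a control replicate 1 peak. The repeat CAGCAGCAG occurred in 10.6% against 7.39%, the E-box CACGTG in 4.78% against 3.39% and the tract CACACACACA in 1.45% against 2.37%. In the regions with 1 lid KD peak these shares were 28.6%, 16.1%, 4.31% and 0.799% in the same order. The element TATCGATA was found in 0 of the 690 windows and in 0.0609% of all. The windows share the higher GC content given above, and these shares are a description.

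The regions lay a median of 2682 bp from the nearest lid KD peak (quartiles 898 and 7472), and 83 of 692 (12.0%) had one within 500 bp. The median was 5788 bp without control replicate 1 and 1268 bp without control replicate 2. The peak lists give no lid KD level at the 701 regions themselves. To ask whether neighbouring marks were lower in lid KD, the nearest regions called in all 4 libraries and within 10 kb were taken. They were 431 in number and not used by the rule. Their level was the log2 fold enrichment less the median of the library over all regions called in all 4. It was -0.76 and -0.49 in control replicates 1 and 2, a mean of -0.63 ± 0.19 (SD, n = 2), compared with -0.78 and -0.82 for the lid KD pair. Both groups were thus below their library median next to these regions. The mean of the lid KD pair, counted as 1 sample, was -0.80, below both controls but close to control replicate 1. The lid KD mean less the control mean was -0.170 on the log2 scale, smaller in size than the SD of the controls. An exact two-sided permutation test with lid KD as 1 sample gave p = 0.667. Its smallest possible p is 0.333, so the test cannot decide whether the groups differ. The difference was -0.305 without control replicate 1, -0.035 without control replicate 2 and -0.512 by summit pileup over genome background, the sign being the same in each.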

How the data were processed

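The authors aligned paired-end reads of 50 bases to dm6 with Bowtie2 2.3.3, discarded reads without a unique alignment, then duplicates (Picard 2.17.10), and called peaks in each library with MACS2 2.1.1 at a q-value threshold of 0.1. Whether an input library was used is not given in the sources used here. The deposited lists hold, for each peak, a fold enrichment, which is the ratio of summit pileup to background in the same library, and the -log10 of its p-value and q-value.

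Summit pileup and background were solved from the authors' fold enrichment and -log10 p-value under a Poisson model. Pileups came out whole, within 0.1, for at least 99.96% of peaks. The solver and the merging were tested on simulated data. Read totals were not used, so background coverage stands for depth. Intervals and counting errors cover counting only, and fold enrichments are relative within a library. Start sites and genes came from Ensembl release 115 (BDGP6, the dm6 assembly) and sequence from RefSeq Release 6. Scaffolds were not annotated here. Scripts ran in Python 3.11.15 with numpy 2.4.6 and scipy 1.17.1.

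Members and lists were chosen with earlier results of these data known. Named regions were the 10 at start sites and the 10 elsewhere with the highest fold enrichment in the weaker control, list genes with a region at a start site, dhd and the widest region. Calls selected the members, so the neighbouring regions alone were tested. Alternatives were lists of equal length, a q-value of at most 0.01, other overlaps, distances and windows, and leaving out each library in turn. Replicate numbers were not taken to pair samples.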

Additional observations from a re-analysis of the deposited data

How the results depend on the processing

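The number of regions stayed between 618 and 823 with a q-value of at most 0.01, an overlap of 50% of the shorter peak, no lid KD peak within 500 bp, the main arms only, and 2 alternatives chosen after seeing the data (no transposable elements, 649, and control replicate 1 peaks taken without merging, 823). With lists of equal length it was 459, the GC content 57.3%, the start-site share 25.9% and the intergenic share 11.1%. A window of 250 bp gave 16.5% at start sites and 66.2% in gene bodies, and one of 1000 bp gave 31.0% and 54.2%. The GC content was 57.5% in 200 bases around the summit, and the median distance to a lid KD peak was 3621 bp when peaks within 500 bp were disallowed.

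Leaving out each library in turn gave 909 to 12634 regions, 124 to 1434 genes, start-site shares of 17.8% to 31.4%, gene-body shares of 54.8% to 65.0%, intergenic shares of 12.1% to 17.0%, transposable element shares of 0.823% to 6.15%, widths of 212 to 448 bp, GC contents of 52.0% to 56.9%, distances of 1268 to 5788 bp and median fold enrichments of 1.56 to 1.60 and 1.86 to 2.27 in control replicates 1 and 2. Both counts were highest without control replicate 1 and lowest without lid KD replicate 1. Leaving out a library loosens the rule, so these counts could only rise and no named region could be lost. The 20 named regions were checked with each library left out, lists of equal length and the stricter q-value. They were also checked with the larger overlap and with no lid KD peak within 500 bp, and 18 met the rule throughout. The main arms only, no transposable elements and control replicate 1 peaks without merging were not part of this check. Excluding scaffolds or elements removes, by definition, the named regions that lie there.

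The difference at neighbouring regions kept its sign, from -0.305 to -0.035 when each library was left out, -0.298 within 2 kb and -0.512 by summit pileup over genome background. With replicate numbers as a replicate block it was -0.170 (exact sign-flip permutation, p = 0.500, the smallest possible), and with 4 libraries as 4 samples p = 0.333, the smallest possible (exact permutation). With 2 controls that differ beyond counting error and a lid KD pair that does not, the smallest p of the exact permutation test is 0.333.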
